A study of Saccharomyces cerevisiae with 16 samples.

Results

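The comparison described here sets RNA polymerase II (RNAPII) peaks of heat-shocked ubc9-6 yeast against those of heat-shocked WT yeast, at protein-coding genes other than the ribosomal protein genes (RPGs). It rests on 4 of the 8 RNAPII peak lists of the series, 2 per strain, each list called from an immunoprecipitation against its own input; IP and input libraries together make up 16 samples. In the ubc9-6 strain the UBC9 locus of W303a carries a repeated copy of the ubc9-1 allele with a TRP1 marker between the copies. The study describes the mutation as reducing the activity of the SUMO-conjugating enzyme Ubc9. The WT strain is the W303a parent, a haploid MATa strain with mutant ura3, trp1, leu2, his3, ade2 and can1 alleles. The strains therefore differ in the TRP1 marker as well as in UBC9, and effects of these cannot be told apart. Both strains were grown in synthetic complete medium and moved to 37 °C for 12 min, whereas the untreated cultures of either strain stayed at 30 °C. For growth of ubc9-6 the study calls 30 °C permissive and 37 °C non-permissive. Heat shock and the non-permissive temperature therefore coincide in that strain and cannot be told apart. ChIP used an antibody against the largest RNAPII subunit. The study describes its replicates as independent, without saying how the cultures were started, so the spread between replicate lists may be partly technical.

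SUMO is a small protein that is conjugated to lysines of other proteins through Ubc9, the only conjugating enzyme of that pathway, and many of its targets act in transcription. Heat shock makes yeast switch RNAPII toward chaperone genes, driven by the heat shock factor Hsf1, and toward general stress genes, driven by Msn2 and Msn4, while ribosomal protein and ribosome assembly genes are turned down for a time. Other pathways respond to heat as well, among them cell wall integrity signalling, in which the MAP kinase Slt2 activates the transcription factor Rlm1.

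Among the 6002 ORFs of the nuclear chromosomes, the covered share is the fraction of an ORF, introns included, that lay under peaks of a list (0 to 1), and an ORF counted as occupied at a share of 0.5 or more. Gained ORFs were occupied in both ubc9-6 heat shock lists and in neither WT heat shock list; lost ORFs showed the reverse. Single genes were not tested, and values are given as a description; with 2 lists per strain the smallest two-sided p an exact permutation test allows is 0.33. Gained ORFs numbered 299 (4.98% of all ORFs) and lost ORFs 162 (2.7%). RPGs made up 114 of the gained ORFs and none of the lost ones. Outside the 137 RPGs, 185 of 5865 ORFs were gained (3.15%) and 162 were lost (2.76%). Only ORFs occupied in ubc9-6 can be gained, and only ORFs occupied in WT can be lost. Shares of gained or lost genes therefore have unlike bases where a gene list is occupied more or less than all non-RPGs. Without WT replicate 1 or WT replicate 2, 247 or 294 non-RPGs would count as lost. Leaving a list out relaxes the rule, so counts of gained and lost ORFs can then only stay or rise. The members closest to the limit were YGR146C-A, gained with a lowest covered share of 0.50, and YCF1, lost with a lowest covered share of 0.501 in WT. Just outside stood YBL071C-B, which reached 0.495 in its lower ubc9-6 list, and SSN8, which reached 0.498 in its lower WT list.

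The lists themselves were of like size. Peaks numbered 1545 and 1512 in the ubc9-6 lists and 1540 and 1496 in the WT lists, and they covered 2954325 and 2972508 bp in ubc9-6 and 2852422 and 2772801 bp in WT. Outside RPG ORFs the covered length was 2864360 ± 15791 bp in ubc9-6 and 2805023 ± 53815 bp in WT (SD, n = 2 each, two-sided exact permutation p = 0.33, the smallest this design allows). Occupied non-RPGs averaged 1510 ± 8.49 in ubc9-6 and 1529.5 ± 48.8 in WT, with overlapping ranges (SD, n = 2 each, two-sided exact permutation p = 1.0). Thus the number of non-RPGs occupied was alike, and the strains differed in which genes those were. Base by base, the covered sequence overlapped with a Jaccard index of 0.835 between the ubc9-6 replicates and 0.75 between the WT replicates, against 0.566 to 0.593 between lists of different strains. The study states the reads aimed at per sample, but the depth reached in each list is not given in the sources used here, so peak strength was compared only as rank within a list.

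Mating type markers were looked at as a check of the labels. All 4 alpha-cell genes looked at, such as the pheromone receptor gene STE3, had a covered share of 0 in every list, and of 7 a-cell genes 4 and 4 were occupied in ubc9-6 and 4 and 5 in WT. The a-factor genes MFA1 and MFA2 and the receptor gene STE2 were covered in full in all 4 heat shock lists. STE6, the a-factor exporter gene, was occupied in none of them, BAR1, a pheromone protease gene, only in WT replicate 2, ASG7 only in ubc9-6 replicate 2, and AGA2, an agglutinin gene, in all but ubc9-6 replicate 2. TRP1, the marker gene of the ubc9-6 strain, was covered in both strains, and its peak ranked at 73.5 and 71.3 of 100 in ubc9-6 and at 49.97 and 57.65 in WT. UBC9 itself was occupied in a single list, ubc9-6 replicate 1, with a covered share of 0.779, against 0 in ubc9-6 replicate 2 and in both WT lists. An extra chromosome III is a known tendency of the original ubc9-1 strain, which the study says the ubc9-6 allele alleviates. On that chromosome 8 of 167 non-RPGs were gained (4.79%) and 7 were lost (4.19%), so calls in both directions were above the shares over all chromosomes. Each list was called against its own input, so these counts do not measure copy number.

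Chaperone genes were occupied alike. All 28 Hsf1 target genes on the list, which encode chaperones such as Hsp82, Hsp104 and the Hsp70 protein Ssa4, were covered in full in all 4 heat shock lists. Their peaks stood near the top of each list, with a mean percentile rank of 93.9 in ubc9-6 and 93.7 in WT (100 is the strongest peak of a list), and no member was gained or lost or met the rule for a rank difference (at least 20 points, no overlap of strains). With WT covered in full no gain was possible, and a mean WT rank of 93.7 left little room for a rise of 20 points. HSP82, the inducible Hsp90 gene, ranked at 99.5 and 99.6 in ubc9-6 and at 99.3 and 99.4 in WT. SSA4 ranked at 95.7 and 96.1 in ubc9-6 and at 98.9 and 98.0 in WT, below WT in both lists but by few points. General stress genes were occupied in 41 and 41 of 43 cases in ubc9-6 and in 39 and 41 in WT. Glycolysis, respiratory chain and citric acid cycle genes were nearly all occupied in both strains, and none of the 34 proteasome genes was lost. A single proteasome gene, RPT1, which encodes a base ATPase, was gained (2.94%, against 3.15% of all non-RPGs). Its covered shares were 1 and 1 in ubc9-6 against 0.293 and 0.196 in WT.

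**Figure D1:**
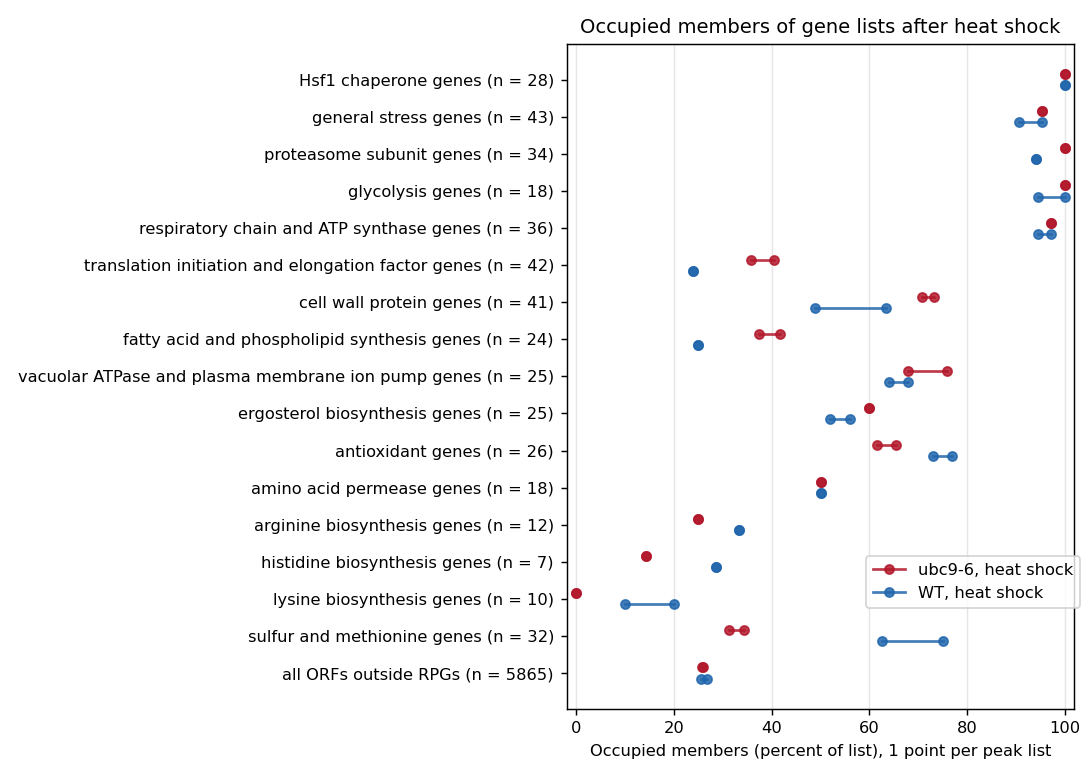
Percent of the members of each gene list that were occupied, 1 point per peak list, with ubc9-6 (red, upper line) and WT (blue, lower line) after heat shock; a line joins the replicates. All 28 Hsf1 chaperone genes were occupied in every list, whereas the sulfur and methionine genes had 11 and 10 of 32 members occupied in ubc9-6 and 24 and 20 in WT.

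Sulfur assimilation and methionine synthesis stood out among the lists. Of its 32 genes, 11 and 10 were occupied in ubc9-6 and 24 and 20 in WT. Of these genes 8 were lost and none was gained, against 2.76% lost among all non-RPGs. Only ORFs occupied in WT can be lost, and WT occupied 1564 and 1495 of all 5865 non-RPGs, a smaller part than of this list. The shares of lost genes therefore have unlike bases. The mean covered share over the list was 0.364 in ubc9-6 and 0.720 in WT, and the median difference was -0.20, beside a median of 0 over all ORFs. The lost genes span the pathway. SUL2 encodes a sulfate permease, MET14 adenylylsulfate kinase, MET16 the reductase of the next step, MET22 the phosphatase that clears its by-product, MET17 the enzyme that brings sulfide into homocysteine, and MET2 homoserine acetyltransferase. MET32 encodes a DNA-binding partner of the activator Met4, and MET30 the ubiquitin ligase subunit that restrains Met4.

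In the individual lists, MET2 (chrXIV:117349-118809, plus strand) had covered shares of 0 and 0 in ubc9-6 and 1 and 1 in WT, where its peak ranked at 75.7 and 73.8. MET17 had shares of 0.114 and 0 in ubc9-6 and 1 and 1 in WT, where its peak was among the strongest, at ranks of 94.2 and 93.5 and mean fold enrichments over input of 4.35 and 4.36. SUL2 had 0.0362 and 0.0350 in ubc9-6 against 1 and 1 in WT. That the strains do not overlap at these genes follows from the rule for lost ORFs. MET14 had 0 and 0.220 in ubc9-6 against 1 and 1 in WT, MET16 0.401 and 0.187 against 1 and 1, and MET30 0.0260 and 0.185 against 0.953 and 0.862. MET22 was covered nowhere in ubc9-6 and in full in both WT lists, and MET32 reached 0.0712 at most in ubc9-6 against 1 in both WT lists. A further 5 members, MET3, MET5, SAM1, STR3 and HOM2, were occupied in WT replicate 1 alone; MET3 had a covered share of 0.241 in WT replicate 2. Without WT replicate 2 the list would hold 13 lost genes.

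**Figure D2:**
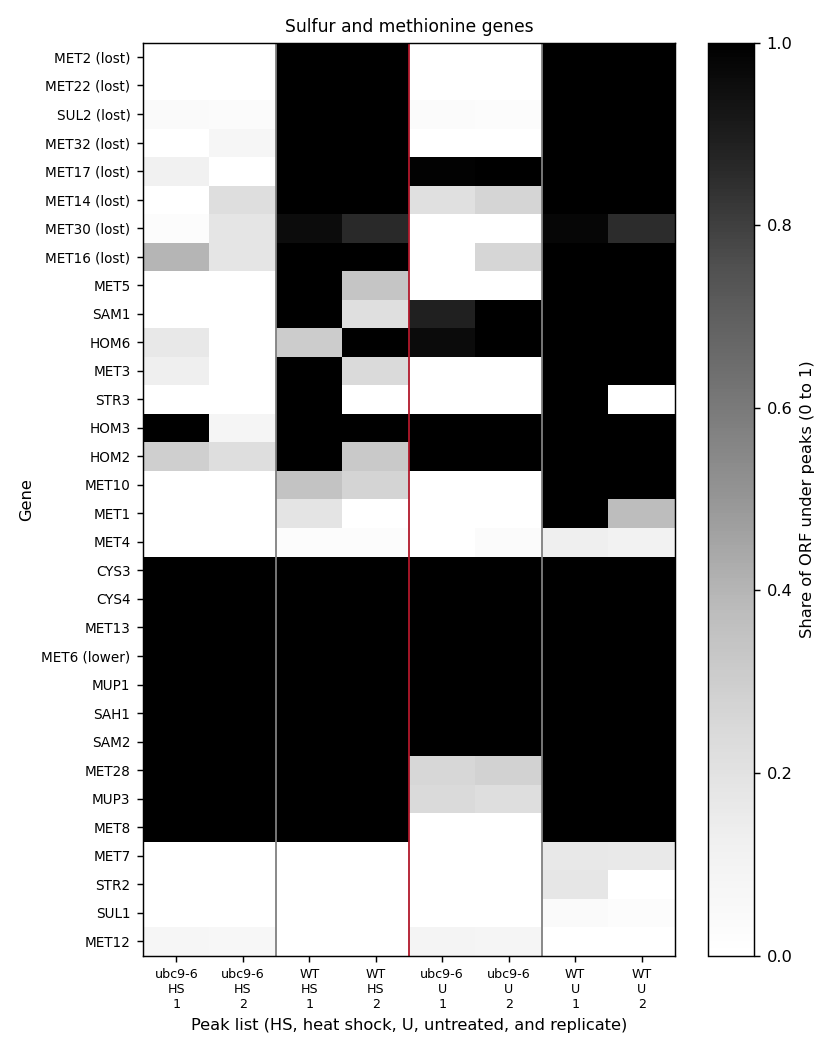
Share of each sulfur and methionine ORF under RNAPII peaks (white 0, black 1) in the 4 heat shock lists (HS) and the 4 untreated lists (U), ubc9-6 left of WT in each pair; genes are sorted by the heat shock difference. The 8 lost genes are white or pale in both ubc9-6 heat shock lists and dark in both WT heat shock lists.

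Those sulfur genes that stayed occupied in all 4 lists lay lower in rank in ubc9-6. This held for 10 of 10 such genes, with a median difference of -13.25 percentile points beside -0.42 over all 1065 ORFs occupied in all 4 lists. MET6, the methionine synthase gene, had the largest difference of them: ranks of 65.3 and 58.6 in ubc9-6 against 97.3 and 96.4 in WT. The methionine permease genes MUP1 and MUP3 lay lower too, at 85.9 and 86.0 in ubc9-6 against 97.5 and 89.5 in WT for MUP1 and at 69.2 and 73.1 in ubc9-6 against 92.6 and 87.1 in WT for MUP3. CYS3, which makes cysteine from cystathionine, had 64.4 and 66.1 in ubc9-6 against 86.3 and 73.8 in WT. In none of these did the strains overlap. SAM3, an S-adenosylmethionine permease gene kept on the amino acid permease list, was also lost, with shares of 0 and 0.0692 in ubc9-6 against 1 and 1 in WT.

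The sequences upstream of the lost sulfur genes are shown because the same transcription factors are known to act there. Met4 has no DNA contact of its own and is brought to promoters by Cbf1, which binds CACGTG, and by Met31 and Met32, whose sites hold CTGTGG. Both motifs were searched on either strand in the 300 bases before each start codon, and they share no bases with each other. CACGTG occurred in 5 of the 8 lost sulfur genes and in 12 of the 32 on the list, against 3.57% of 6001 ORFs with a full window. CTGTGG occurred in 3 of the 8 and 13 of the 32, against 6.85% of all. The 5 windows with CACGTG follow, 5′ to 3′ toward the start codon, with CACGTG and CTGTGG (or its complement) in capitals and coordinates in the R64 (sacCer3) build, read from the RefSeq genome sequence.
MET14, chrXI:439386-439685, minus strand: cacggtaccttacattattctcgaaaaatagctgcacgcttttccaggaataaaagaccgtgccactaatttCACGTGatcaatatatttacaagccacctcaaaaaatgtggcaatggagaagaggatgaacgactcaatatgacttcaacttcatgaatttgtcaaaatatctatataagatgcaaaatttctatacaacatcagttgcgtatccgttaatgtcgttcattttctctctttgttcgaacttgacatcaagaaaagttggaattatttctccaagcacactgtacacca
MET16, chrXVI:877633-877932, minus strand: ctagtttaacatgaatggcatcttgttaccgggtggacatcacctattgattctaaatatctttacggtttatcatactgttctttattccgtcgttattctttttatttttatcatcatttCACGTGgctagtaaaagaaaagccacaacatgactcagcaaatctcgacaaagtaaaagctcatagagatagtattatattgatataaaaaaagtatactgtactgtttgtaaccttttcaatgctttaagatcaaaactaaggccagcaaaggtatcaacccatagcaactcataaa
MET17, chrXII:732242-732541, plus strand: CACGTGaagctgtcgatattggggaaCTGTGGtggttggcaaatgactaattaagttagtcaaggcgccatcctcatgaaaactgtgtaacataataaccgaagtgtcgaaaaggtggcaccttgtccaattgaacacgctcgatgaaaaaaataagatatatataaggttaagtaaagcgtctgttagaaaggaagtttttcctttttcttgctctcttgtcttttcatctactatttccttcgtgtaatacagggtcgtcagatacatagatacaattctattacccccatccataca
MET22, chrXV:207177-207476, minus strand: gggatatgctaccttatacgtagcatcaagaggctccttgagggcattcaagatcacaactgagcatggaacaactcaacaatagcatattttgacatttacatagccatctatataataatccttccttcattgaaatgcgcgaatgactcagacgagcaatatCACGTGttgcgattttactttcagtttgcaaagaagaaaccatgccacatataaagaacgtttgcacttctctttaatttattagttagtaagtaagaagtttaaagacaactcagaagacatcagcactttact
MET30, chrIX:268351-268650, plus strand: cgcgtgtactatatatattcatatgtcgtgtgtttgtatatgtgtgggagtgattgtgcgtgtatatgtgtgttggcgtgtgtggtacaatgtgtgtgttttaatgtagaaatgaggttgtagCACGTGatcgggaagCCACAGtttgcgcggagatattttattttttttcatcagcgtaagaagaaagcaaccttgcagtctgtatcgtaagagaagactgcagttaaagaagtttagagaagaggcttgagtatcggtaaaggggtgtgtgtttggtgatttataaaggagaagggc
The CACGTG of MET22 lay closest to its start codon, from base 135 to base 130 before it, and that of MET17 lay at the far edge of the window. MET17 and MET30 held both motifs. MET2 and MET32 held neither in this window, and SUL2 held CTGTGG alone. The motifs were chosen with the results known, and a match describes letters only.

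Some genes of other amino acid pathways went the same way, while none of 14 aromatic amino acid genes was lost. The strains also differ in TRP1, a tryptophan synthesis gene, and its part in these values was not tested. Of 12 arginine synthesis genes, 4 and 4 were occupied in WT. On this list 2 were lost (16.7%, against 2.76% of all non-RPGs) and 1 was gained (8.33%, against 3.15%). The 2 members occupied in all 4 lists ranked lower, as did 8.54% of all 1065 ORFs so occupied. ARG1, argininosuccinate synthetase, had covered shares of 0.0744 and 0.0301 in ubc9-6 against 1 and 1 in WT, and ARG3, ornithine carbamoyltransferase, 0.321 and 0 against 1 and 1. ARG4 and CPA1, which encode argininosuccinate lyase and the small subunit of carbamoyl phosphate synthetase, stayed covered in full; ARG4 ranked at 47.5 and 45.1 in ubc9-6 against 88.1 and 74.2 in WT, and CPA1 at 49.2 and 18.9 against 60.8 and 82.2. The gained member, ARG82, encodes an inositol phosphate kinase that also serves arginine regulation, and it lay under the same ubc9-6 peak as its neighbour HMO1. HIS4 of histidine synthesis had shares of 0.147 and 0.0983 in ubc9-6 against 1 and 1 in WT, and LYS20, homocitrate synthase, 0.469 and 0.469 against 1 and 1, close to the limit of 0.5. Further losses were BAT2 (branched-chain aminotransferase), SER33 (serine synthesis), IMD2 (guanine nucleotide synthesis), GSH1 (glutathione synthesis) and OPT1 (a glutathione and peptide transporter). BAT2 was 1 of 12 branched-chain genes (8.33%) and SER33 1 of 25 glutamate, glutamine, serine and glycine genes (4.0%). IMD2 was 1 of 28 purine genes (3.57%) and GSH1 1 of 26 antioxidant genes (3.85%), against 2.76% of all non-RPGs. No other member of these lists was lost. Of 18 amino acid permease genes, SAM3 was lost (5.56%, against 2.76% of all non-RPGs) and GNP1 was gained (5.56%, against 3.15%). DIP5 and CAN1 ranked lower, 2 of the 7 permease genes occupied in all 4 lists. GNP1, a glutamine permease gene, had covered shares of 1 and 1 in ubc9-6 against 0.175 and 0.175 in WT. In all 4 lists its peak was that of its neighbour SMT3, the SUMO gene, which was covered in full in both strains. That peak ranked at 82.6 and 81.0 in ubc9-6 and higher in WT, at 91.5 and 89.7, so the gain reflects its reach. DIP5 and CAN1 encode carriers of acidic amino acids and of arginine, although W303a carries a mutant can1 allele. The ranks were, for DIP5, 64.1 and 54.3 in ubc9-6 against 90.4 and 94.2 in WT, and for CAN1 34.7 and 17.5 against 51.9 and 64.8.

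HIS4 is shown for the activator Gcn4, which binds TGACTC upstream of many amino acid synthesis genes; the capitals mark TGACTC, found 3 times in these 300 bases.
HIS4, chrIII:68334-68633, minus strand: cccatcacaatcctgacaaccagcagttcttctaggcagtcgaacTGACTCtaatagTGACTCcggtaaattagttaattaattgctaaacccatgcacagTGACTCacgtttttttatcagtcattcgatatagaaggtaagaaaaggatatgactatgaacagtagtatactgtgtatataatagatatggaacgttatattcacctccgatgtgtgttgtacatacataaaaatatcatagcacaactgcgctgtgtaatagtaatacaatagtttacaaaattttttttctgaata
The motif was present in 7.77% of all 300-base windows, in 10.5% of lost and 7.57% of gained non-RPGs, and in 10.99% of those ranked lower. ARG1 also held it, while ARG3 and LYS20 did not in this window.

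On the gained side were genes of cell wall integrity signalling. They were gathered into a list of 38 pathway members and known targets after the calls had been seen, so their count is no evidence of its own; 9 were gained (23.7%, against 3.15% of all non-RPGs), 1 was lost and 1 ranked higher. SLT2, the MAP kinase gene, had covered shares of 1 and 1 in ubc9-6 against 0 and 0.221 in WT, with peaks at ranks of 79.5 and 68.6. RLM1, the transcription factor that Slt2 phosphorylates, had 1 and 1 against 0 and 0, PTP2, a phosphatase gene of this and the osmotic stress pathway, 1 and 0.986 against 0 and 0, and PUN1, a plasma membrane protein gene, 1 and 1 against 0 and 0. The cell wall protein gene CWP1 had the strongest of these peaks, at 97.2 and 96.4, under 1 broad peak with its neighbour CWP2, and it had a covered share of 0 in both WT lists. At MSG5, GFA1 and YPS3, a phosphatase, a chitin precursor enzyme and a cell wall protease, WT already had part of the ORF covered, 0.340 and 0.177 for MSG5, 0.338 and 0.311 for GFA1 and 0.308 and 0.480 for YPS3, against 1 and 1 in ubc9-6 for each. The exception was WSC4, a sensor gene, with 0 and 0 in ubc9-6 against 1 and 1 in WT. PUN1 and PTP2 stood apart from any gene occupied in WT, whereas the peaks over RLM1 and CWP1, and that over SLT2 in ubc9-6 replicate 2, ran on over neighbours that WT also had occupied; RLM1 lay under the same peak as the RPG RPS6A.

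**Figure D3:**
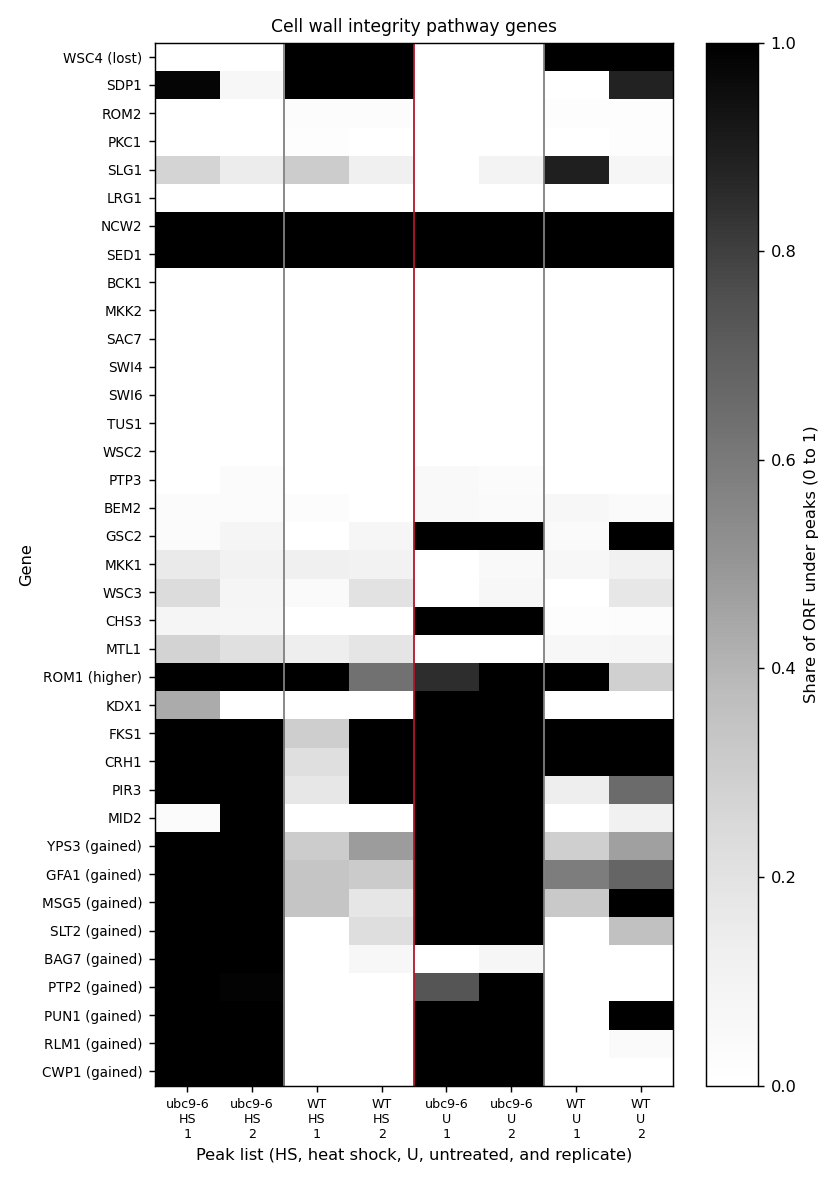
Share of ORFs of the cell wall integrity list under RNAPII peaks (white 0, black 1) in the 4 heat shock lists (HS) and the 4 untreated lists (U), ubc9-6 left of WT in each pair; genes are sorted by the heat shock difference. The 9 gained genes at the bottom are dark in both ubc9-6 heat shock lists, and WSC4 at the top shows the opposite pattern.

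MAP kinase genes of other pathways were among the calls too, named here after their values were seen. HOG1, the osmotic stress kinase, had covered shares of 1 and 1 in ubc9-6 against 0.456 and 0.473 in WT, at the edge of a very strong peak over its neighbour CCW12. KSS1, the filamentation kinase, had 1 and 0.6405 against 0 and 0.164, under weak peaks at 23.8 and 28.5. FUS3, the mating kinase, went the other way, with 0.114 and 0 in ubc9-6 against 1 and 1 in WT, where it ranked at 73.3 and 74.0. Genes of multidrug efflux gave 5 gained (22.7%, against 3.15% of all non-RPGs) and 1 lost out of 22, on a list made after the calls were seen. PDR5, the main drug efflux pump gene, had 1 and 1 in ubc9-6 against 0 and 0 in WT over its whole length, at ranks of 28.1 and 25.4, and SNQ2, a pump of the same family, 1 and 1 against 0.142 and 0.25. YCF1, a vacuolar glutathione conjugate pump, was the lost one, with 0 and 0 against 0.501 and 0.572.

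Of 42 translation factor genes, 17 and 15 were occupied in ubc9-6 and 10 and 10 in WT, with 4 gained (9.52%, against 3.15% of all non-RPGs) and none lost. They were TIF5 (initiation factor eIF5), with 0.930 and 1 in ubc9-6 against 0 and 0 in WT, TEF4 (elongation factor eEF1B), with 1 and 1 against 0 and 0, EFT2 (eEF2), with 1 and 1 against 0.102 and 0.0878, and STM1 (a ribosome-bound protein), with 1 and 0.987 against 0 and 0. ASC1, which encodes a protein of the small ribosomal subunit that the RPG naming does not take in, had 1 and 1 in ubc9-6 against 0 and 0 in WT. Of the ribosome assembly genes, 1 and 1 of 81 were occupied in ubc9-6 and 0 and 0 in WT. The single gained gene was NOP10 (1.23%, against 3.15% of all non-RPGs).

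Membrane and wall genes were gained in smaller numbers. Of 41 cell wall genes, 30 and 29 were occupied in ubc9-6 and 20 and 26 in WT. CWP1, GAS5, CHS1 and UTR2 were gained (9.76%, against 3.15% of all non-RPGs) and TOS6 was lost (2.44%, against 2.76%). The shares of gained genes have unlike bases, since ubc9-6 occupied 1516 and 1504 of all 5865 non-RPGs, a smaller part than of this list. SCW4 and CTS1 ranked lower, CTS1 no longer so when only peaks that touch no RPG ORF were ranked. Without WT replicate 2, 10 cell wall genes would be gained. Of 24 fatty acid and phospholipid synthesis genes, FAS2, ACC1 and TSC13 were gained (12.5%, against 3.15% of all non-RPGs), and FAS1 ranked higher. In ubc9-6, 10 and 9 of the 24 were occupied, again a larger part than of all non-RPGs. Among the 5 members occupied in all 4 lists, rank differences pointed up at 2 and down at 3, with a median of -4.06 percentile points. FAS1 and FAS2 encode the subunits of fatty acid synthase; FAS1 ranked at 72.0 and 74.6 in ubc9-6 against 48.4 and 46.2 in WT, and FAS2 had covered shares of 1 and 0.784 against 0.252 and 0.0832. ACC1, acetyl-CoA carboxylase, had 1 and 1 against 0.167 and 0.101, but its ubc9-6 peaks were weak, at 23.72 and 26.95, and with only peaks of −log10 q of at least 5 the difference in covered share turned to -0.11. TSC13 turned likewise, to -0.36. Of 25 proton and ion pump genes, VPH1, STV1 and PMC1 were gained (12.0%, against 3.15% of all non-RPGs). The bases were unlike here too, with 19 and 17 of the 25 occupied in ubc9-6. VMA4 was lost (4.0%, against 2.76%), and VMA5 and VMA9 ranked higher. VMA5 shared its peak with TEF4. In WT, VMA9 lay under the same peak as ILV6, at ranks of 65.5 and 57.5. Their peaks were separate in ubc9-6, at 89.6 and 87.2 for VMA9 and at 34.8 and 41.6 for ILV6, which ranked lower. These counts were small and moved with the peaks kept: with the strongest peaks up to 2000000 bp, 1 translation factor gene, 2 cell wall genes and 1 ion pump gene were gained.

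Many of the calls came from peaks that differed in reach. Of the 185 gained non-RPGs, 72 had peaks in ubc9-6 that touched no ORF occupied in either WT list, and of the 162 lost ones 73 had peaks in WT that touched no ORF occupied in ubc9-6; the other 113 and 89 shared a peak with an ORF of the other strain. An RPG lay under the same peak at 29 gained and 4 lost ORFs. Full coverage in both lists against none at all in the other strain was seen at 38 gained and 41 lost ORFs. Peaks that overlapped no peak of WT numbered 235 and 277 in the ubc9-6 lists, of which 45 in each touched an RPG, and peaks with no counterpart in ubc9-6 numbered 281 and 234 in the WT lists. These were short, with median widths of 427 and 425 bp in ubc9-6 and 426 and 403 bp in WT, and mostly weak, with median ranks of 25.02 and 25.43 in ubc9-6 and 19.2 and 18.6 in WT.

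**Figure D4:**
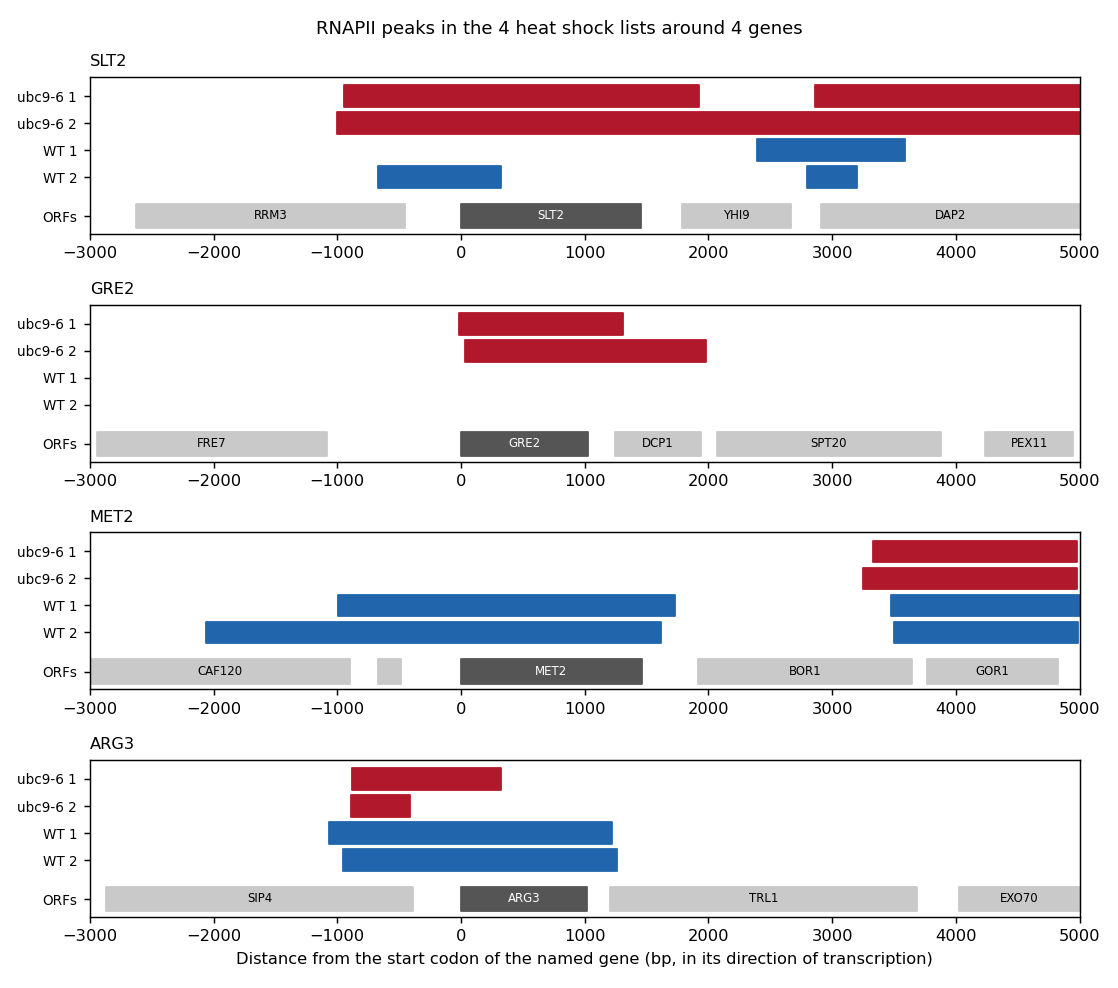
RNAPII peaks (bars) in the ubc9-6 lists (red) and WT lists (blue) after heat shock around SLT2, GRE2, MET2 and ARG3, with ORFs in grey and the named gene in dark grey; the horizontal axis is the distance in bp from the start codon of that gene. GRE2 has a peak in the ubc9-6 lists alone, MET2 lies under peaks of the WT lists alone, and at SLT2 and ARG3 peaks of both strains differ in reach.

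The gained ORFs with the largest differences, all at 1 and 1 against 0 and 0, began with ALG14, CWP1, YMR103C, YCR025C, YPL062W, MIN10, YNG1, YOR161C-C, YPL080C, MOB2, SNU13 and UPA1. ALG14, a sugar transferase subunit gene, led by rank and lay under the peak of the chaperone gene HSP26. Apart from ORFs occupied in WT, the leading ones were YOR161C-C, MOB2 (an activator of the kinase Cbk1), ASC1, PCL10 and SCM4, followed by PUN1, YJL136W-A, PDR5, GIM4 (a prefoldin subunit), YLR264C-A, ARI1 and SNM1; MOB2, PCL10, YJL136W-A and YLR264C-A shared their peak with an RPG. The leading lost ORFs were YMR254C, BNA1, MET2, YNL277W-A, DID4, NDJ1, YLR157W-D, YLR159C-A, YLR159W, ASP3-4, GEP5 and TML25, at 0 and 0 against 1 and 1. Several shared their WT peak with another called gene. YNL277W-A lay under the peak of MET2, DID4 under that of MET14 and GEP5 under that of SUL2. BNA1 lay under that of the Ty reading frame YJR026W. The ASP3 genes and the small ORFs between them are a repeated cluster on chromosome XII in which reads cannot be placed with certainty. Standing apart from genes occupied in ubc9-6 were MET2, YNL277W-A, DID4, YHR112C, YKR032W and DAL80 (a repressor of nitrogen catabolism genes), then OPT1, CWC21, HUB1, TMT1, TRM112 and YER181C. YKR032W and DAL80 shared a WT peak as well.

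Among the 1065 ORFs occupied in all 4 lists, 37 ranked higher (3.47%) and 91 lower (8.54%) in ubc9-6, by at least 20 percentile points and with no overlap of the strains. RPGs supplied 2 of the higher ones, RPL4A and RPS30A, and none of the lower ones. SNC2, a vesicle v-SNARE gene, had the largest difference upward, with ranks of 77.6 and 73.8 in ubc9-6 against 19.8 and 24.7 in WT. GPC1, a phospholipid acyltransferase gene, had 83.7 and 61.0 against 19.8 and 23.4, under a peak that in ubc9-6 also covered RPL24B, and GET3, the ATPase that targets tail-anchored proteins, had 76.0 and 75.6 against 34.7 and 32.1. They were followed by SSD1, SCS22, WIP1, CCS1, ROM1, OXR1 and IAT4. SSD1 was uneven in WT, at 75.5 and 78.5 in ubc9-6 against 9.9 and 66.3 in WT. The count of higher ORFs rests on the WT lists, being 90 without WT replicate 1 and 58 without WT replicate 2. When only peaks that touch no RPG ORF were ranked, 38 ORFs ranked higher and 80 lower. Of the calls above, 30 of the 37 higher and 80 of the 91 lower ones were kept. GPC1, SCS22 and OXR1 were not among those kept.

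Downward, 18 of the 91 were reading frames of Ty retrotransposons, and they held 7 of the 10 largest differences, led by YJR026W at ranks of 6.5 and 3.67 in ubc9-6 against 68.7 and 81.5 in WT. Of 89 Ty ORFs, 45 and 49 were occupied in ubc9-6 and 64 and 72 in WT, with 16 lost (18.0%, against 2.76% of all non-RPGs) and 2 gained (2.25%, against 3.15%). WT occupied a larger part of the Ty ORFs than of all non-RPGs, so the shares of lost ORFs have unlike bases. Ty copies are near-identical, so reads may have been placed among them at will, and the reference genome is that of another strain than W303. The list was made after the calls were seen. The remaining 3 of those 10 were YKL068W-A, AIM41 and RCF1 (respiratory supercomplex assembly). RCF1 ranked at 21.2 and 15.6 in ubc9-6 against 61.2 and 68.7 in WT. ERG10, the acetoacetyl-CoA thiolase gene of sterol synthesis, had 36.6 and 21.8 against 68.3 and 68.0, URA10, a pyrimidine synthesis gene, 16.8 and 13.1 against 50.03 and 66.7, and HTZ1, the histone H2A.Z gene, 45.1 and 30.2 against 70.9 and 72.5. MFA1 ranked lower as well, at 35.37 and 44.87 in ubc9-6 against 51.33 and 76.04 in WT.

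**Figure D5:**
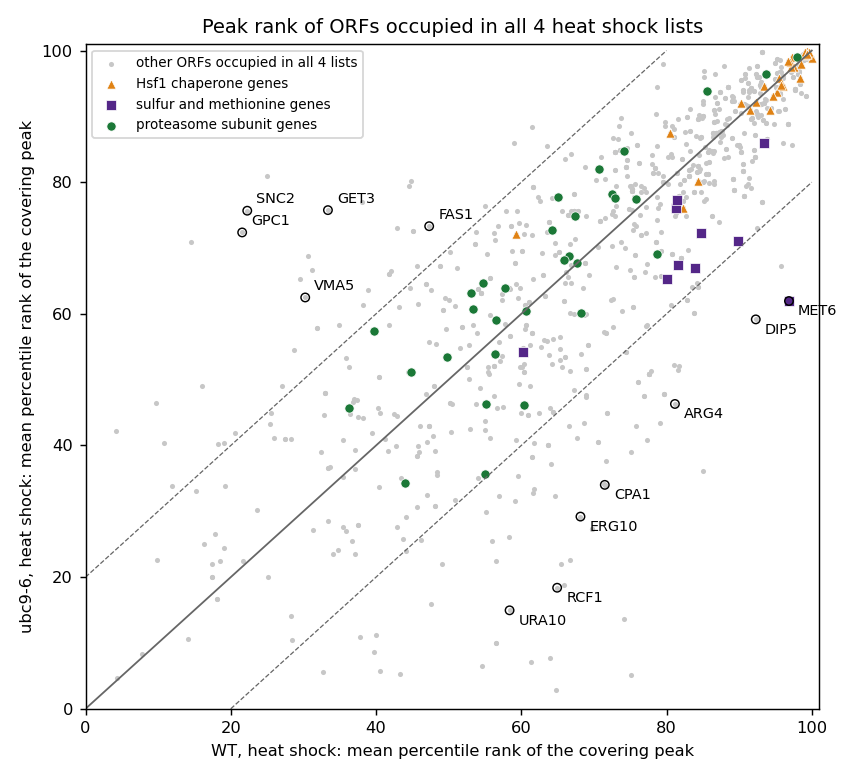
Mean percentile rank of the peak covering each of the 1065 ORFs occupied in all 4 heat shock lists, ubc9-6 on the vertical and WT on the horizontal axis (100 is the strongest peak); dashed lines mark a difference of 20 points. Most Hsf1 chaperone genes lie near the diagonal at its upper end, and all 10 sulfur and methionine genes lie below it.

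The untreated lists, which are separate libraries, held many of the same differences. Of the 185 gained non-RPGs, 126 were occupied in both untreated ubc9-6 lists (68.1%) and 68 met the same rule for gain there. Of the 162 lost ones, 116 were occupied in both untreated WT lists (71.6%) and 68 were lost there as well. No ORF was gained after heat shock and lost without it, or the reverse. Among the sulfur genes, MET2, MET14, MET16, MET22, MET30, MET32 and SUL2 had less than 0.5 covered in both untreated ubc9-6 lists and more in both untreated WT lists. SLT2, RLM1, PTP2 and CWP1 were gained in the untreated lists too.

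Other ORFs met the rule for gain or loss after heat shock only. MET17 was covered to 0.989 and 1 in untreated ubc9-6 and to 1 and 1 in untreated WT, while after heat shock it was lost; the same held for ARG1, ARG3, LYS20 and SAM3, each covered in full in all 4 untreated lists. Their ranks differed without heat shock as well, except at LYS20 where the gap was small: MET17 had 83.1 and 83.3 in untreated ubc9-6 against 96.3 and 97.6 in untreated WT, ARG1 59.3 and 43.7 against 94.1 and 94.5, ARG3 72.5 and 69.8 against 90.9 and 96.6, and SAM3 70.4 and 61.7 against 92.7 and 92.1. A covered share cannot pass 1, so it shows no such difference. In all, 29 lost and 30 gained non-RPGs were occupied in every untreated list; FAS2, ACC1, ERG6 and TEF4 were among the gained ones. Another 35 gained and 18 lost ORFs were occupied in no untreated list. GRE2, a stress-induced reductase gene, had covered shares of 1 and 0.968 in heat-shocked ubc9-6 against 0 and 0 in heat-shocked WT, and 0 in every untreated list. DAK1, dihydroxyacetone kinase, had 1 and 1 against 0.263 and 0.201 after heat shock and 0 without it, and TKL2 and ALD2, a transketolase and a stress-induced aldehyde dehydrogenase, had 1 and 1 in heat-shocked ubc9-6 and at most 0.244 in any other list. On the lost side, SHH4 and PUS5 (under a shared peak), YPT53 and YER181C were occupied in the heat-shocked WT lists alone. Whether the strain difference depends on heat shock was not tested for any of these genes. In ubc9-6 the heat shock was also a move to the non-permissive temperature, and these cannot be told apart.

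The median length was 1074 bp for gained, 831 bp for lost, 759 bp for non-RPGs occupied in all 4 lists and 1230 bp for all non-RPGs. Median GC content was 39.7% for gained, 40.6% for lost and 39.7% for all non-RPGs, and introns were present in 10 of 185 gained, 10 of 162 lost and 182 of 5865 non-RPGs. The heat shock element, searched as GAANNTTC and TTCNNGAA, was present within 300 bases of the start codon in 21.6% of gained and 13.0% of lost ORFs, against 22.4% of all ORFs, and AGGGG, the stress response element, in 23.8% and 22.8%, against 22.2%. By chromosome, losses ran from 0 of 94 on chromosome I to 24 of 502 on chromosome XII, where the repeated ASP3 cluster lies.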

How the data were processed

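Broad RNAPII peaks from ChIP-seq of ubc9-6 and WT yeast were used as deposited. Per the labels and the study's methods, the authors aligned reads to sacCer3 with Bowtie2 2.3.5 and called peaks in each replicate against its input with MACS2 2.1.1.20160309; lists were not pooled. The deposited columns used hold the mean fold enrichment over input (a ratio) and the −log10 q value of each peak; the deposited −log10 p values were not used. Read counts were not used here and the depth reached per list is unknown, so fold values were compared within a list only, and precision is limited to the spread between 2 lists per group. Input samples have no list of their own.

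ORFs came from the RefSeq annotation of R64, from start to stop codon with introns. RPGs were genes named RPL, RPS or RPP with a number. Covered share, peak rank (percentile by fold enrichment of the peak covering most of an ORF) and the calls were computed in Python 3.11.15 with numpy 2.4.6 and scipy 1.17.1, and tested on simulated lists. List totals were compared by two-sided exact permutation over 8 measures, with Benjamini-Hochberg adjustment (lowest adjusted value 0.444). Named genes were the 12 non-RPGs per direction with the largest difference in covered share, the same among ORFs whose peaks touched no ORF occupied in the other strain, the 10 with the largest rank difference per direction, called members of 41 gene lists, and strain and mating type markers. The comparison, its lists and the motifs were chosen with earlier results of these data known; the cell wall integrity, MAP kinase, drug efflux and Ty lists were added after the calls were seen. Alternatives were stricter peaks, other occupancy limits, joined peaks, other rankings, each replicate left out and a replicate block. Promoter windows were read from the R64 genome sequence. MFALPHA1 and MFALPHA2 were matched by their annotated names, and CRS5 was not used here. An item of the cell wall integrity list is not reported here and was left out of its plot.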

Additional observations from a re-analysis of the deposited data

How the results depend on the processing

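Limits are that the depth reached per list is unknown, that single genes were not tested, and that an ORF at the edge of a peak changes its call with small shifts of the peak's end. Gained and lost counts outside RPGs stayed within 1.5 times of 185 and 162 under stricter peaks, other occupancy limits and joined peaks, but the ORFs behind them changed: 141 of 185 gained and 121 of 162 lost ORFs were kept with −log10 q of at least 5, 137 and 99 with the 1000 strongest peaks, 98 and 75 with the strongest peaks up to 2000000 bp, 122 and 115 at an occupancy limit of 0.25, and 148 and 139 at 0.75. Leaving out each list in turn gave 220 to 267 gained and 198 to 294 lost non-RPGs (339 to 387 gained and 198 to 294 lost over all ORFs), 48 to 90 ranked higher, 104 to 113 ranked lower, 8 to 13 lost sulfur genes and 4 to 10 gained cell wall genes. The gained and lost counts could only stay or rise here, because a call needs both lists of each strain. All 185 gained and 162 lost non-RPGs were kept each time. With −log10 q of at least 5, 22 ranked higher and 139 lower, 1 fatty acid and 1 ion pump gene were gained, peak number differed by -162, covered length by -59980 bp and covered length outside RPG ORFs by -145865 bp. With the 1000 strongest peaks that last value was -25571 bp, and fatty acid and ion pump genes gained were 1 and 1. With no 20-point minimum, 320 ranked higher and 401 lower. With the strongest peaks up to 2000000 bp, gained counts were 2 for cell wall, 1 for translation factor and 1 for ion pump genes, and 4 arginine genes were lost. At an occupancy limit of 0.25 they were 2 cell wall, 7 translation factor and 1 fatty acid gene; at 0.75, 1 ion pump gene was gained. Leaving out lists moved the peak number difference between -11.5 and 32.5 and that of occupied non-RPGs between -54.0 and 15.0. The cause was not tested in any of these.

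The covered share difference turned sign for TSC13 (-0.36), ACC1 (-0.11), KSS1 (-0.0822) and STV1 (-0.0311) with −log10 q of at least 5, for TSC13 (-0.20), ACC1 (-0.0557) and IDI1 (0.0392) with the 1000 strongest peaks, and for YAP1 (-0.48), ERG6 (-0.26), TYS1 (0.10), SNQ2 (-0.10), VPH1 (-0.0628), ACC1 (-0.0557) and RNR2 (-0.04) with peaks up to 2000000 bp. With that last setting the difference was 0 at MET22, MET32, WSC4, PUN1 and STM1. Replicate deviations of same-numbered lists correlated at 0.0085 across ORFs. That value showed no pairing by replicate number, but it cannot exclude a batch shared by same-numbered lists. With a replicate block 185 non-RPGs were gained, 162 lost, 38 ranked higher and 91 lower, and totals reached p = 0.5 at best by exact sign flips.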
